A study of Mus musculus with 15 samples.

Results

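Expression of 10 genes of glutathione synthesis and of the thioredoxin system was followed across 15 RNA sequencing libraries of mouse C2C12 myotubes. The genes were Gclc, Gclm, Gss, Gsr, Slc7a11, Txnrd1, Txn1, Srxn1, Prdx1 and Gpx1. They were picked by symbol as a pathway, with earlier results of these data known, and are 10 of the 42807 symbols in the count table. All 10 were among the 14461 genes that passed the filter on low counts. C2C12 is an established mouse myoblast line that fuses into contracting myotubes when serum is lowered. The cells were differentiated for 6 days and then treated for 24 h. The 5 groups of 3 libraries were non-treated cells, a vehicle control with 0.1% DMSO, and cells given Jakyak-gamcho-tang (JGT), made by boiling peony root with an equal weight of licorice root in water, at 20, 100 or 500 µg/mL. The highest dose had been chosen by the submitters as the one that left 80% of the myotubes viable. The extract was dissolved at 10 mg/mL in saline with 2% DMSO, so dilution alone gives 0.004%, 0.02% and 0.1% DMSO at the 3 doses. The labels do not say whether the lower doses were brought up to the 0.1% of the vehicle. All groups share the same line and the same day of differentiation. Nothing in the labels ties the 3 libraries of a group to separate cultures, so the p-values cover the spread among libraries alone, and that spread may be technical. The sample codes of the control libraries follow one numbering and those of the JGT libraries another, so JGT against either control cannot be told apart from that difference, while the comparisons between doses lie within one numbering. All 15 titles carry the same batch tag, and no other batch is named in the labels.

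Glutathione is a tripeptide that buffers the redox state of the cell. Its first step joins glutamate to cysteine and is carried out by glutamate-cysteine ligase, which pairs a catalytic subunit (Gclc) with a modifier subunit (Gclm) that raises its efficiency. Glutathione synthetase (Gss) adds glycine, glutathione reductase (Gsr) returns the oxidised form to the reduced one at the cost of NADPH, and the cystine-glutamate exchanger xCT (Slc7a11) brings in the cystine that supplies cysteine. The thioredoxin system runs in parallel: thioredoxin reductase (Txnrd1), a selenoprotein, keeps thioredoxin (Txn1) reduced, thioredoxin reduces peroxiredoxins such as Prdx1, and sulfiredoxin (Srxn1) repairs peroxiredoxin that has been over-oxidised. Glutathione peroxidase 1 (Gpx1), also a selenoprotein, uses glutathione to remove hydrogen peroxide. In many tissues the transcription factor NRF2 binds antioxidant response elements near several of these genes, and in skeletal muscle both systems handle the peroxide that contracting fibres make.

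Several of the genes rose in the same comparison, and their promoters are set side by side as a description. RefSeq windows (GRCm38.p6) of 300 bases, from 250 before to 50 after each start, were found for 8 of the 10 genes, with 3 alternative starts for Txnrd1, and none was found for Gclc or Gsr. The letters searched, on both strands, were TGACNNNGC and TGAGNNNGC, the core of the antioxidant response element in its common forms. A match occurred in 5 of the 10 windows, belonging to 5 genes: Gclm, Slc7a11, Txnrd1 (the second start), Srxn1 and Prdx1. Of all 32851 RefSeq windows of this length, 27.8% held either motif, 12.4% the first and 17.6% the second. The windows of the 4 genes with a match that rose at 500 µg/mL, and that of Gpx1, which fell there and whose window has no match, are printed 5′ to 3′ on the gene's strand, with the matched bases in capitals.
Srxn1: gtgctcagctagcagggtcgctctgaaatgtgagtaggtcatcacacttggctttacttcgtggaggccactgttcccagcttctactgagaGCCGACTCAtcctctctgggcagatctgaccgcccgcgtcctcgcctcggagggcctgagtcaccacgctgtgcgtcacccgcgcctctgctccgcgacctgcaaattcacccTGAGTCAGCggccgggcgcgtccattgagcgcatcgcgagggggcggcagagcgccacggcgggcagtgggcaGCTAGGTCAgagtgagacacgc
Txnrd1: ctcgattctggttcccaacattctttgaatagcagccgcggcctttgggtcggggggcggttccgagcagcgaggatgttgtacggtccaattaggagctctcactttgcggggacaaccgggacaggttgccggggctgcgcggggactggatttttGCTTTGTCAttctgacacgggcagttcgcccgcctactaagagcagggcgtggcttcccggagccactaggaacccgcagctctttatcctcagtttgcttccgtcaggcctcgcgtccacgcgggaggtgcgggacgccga
Gclm: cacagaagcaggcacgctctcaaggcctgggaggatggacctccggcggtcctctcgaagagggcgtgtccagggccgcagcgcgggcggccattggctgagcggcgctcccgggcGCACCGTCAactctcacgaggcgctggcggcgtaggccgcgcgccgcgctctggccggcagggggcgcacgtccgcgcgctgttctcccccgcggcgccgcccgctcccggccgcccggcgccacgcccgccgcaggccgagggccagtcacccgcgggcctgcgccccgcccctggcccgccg
Prdx1: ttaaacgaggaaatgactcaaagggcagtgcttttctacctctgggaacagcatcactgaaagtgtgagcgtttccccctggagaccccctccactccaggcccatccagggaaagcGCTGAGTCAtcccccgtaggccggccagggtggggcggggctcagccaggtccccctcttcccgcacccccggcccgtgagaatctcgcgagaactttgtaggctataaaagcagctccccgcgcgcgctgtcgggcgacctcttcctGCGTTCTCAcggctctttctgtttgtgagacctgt
Gpx1: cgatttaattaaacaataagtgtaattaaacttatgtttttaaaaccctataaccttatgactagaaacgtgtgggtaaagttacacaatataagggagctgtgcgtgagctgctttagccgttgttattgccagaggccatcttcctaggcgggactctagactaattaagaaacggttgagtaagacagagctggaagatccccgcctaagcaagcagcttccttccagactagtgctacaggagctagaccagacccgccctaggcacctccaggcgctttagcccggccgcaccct
The windows lie on the plus strand at chr2:152105274-152105573 (Srxn1), chr10:82858956-82859255 (Txnrd1), chr3:122245307-122245606 (Gclm), chr4:116685349-116685648 (Prdx1) and chr9:108338830-108339129 (Gpx1). Srxn1 had 3 matches, which began 158 and 45 bases before the start and 28 after it. The single matches of Txnrd1 and Gclm began 92 and 134 bases before the start, and Prdx1 had one 133 before and one 15 after. Slc7a11, whose window is not printed, held a match but was not called at 500 µg/mL. Gss and Txn1, which also rose at 500 µg/mL, held no match, nor did the other Txnrd1 windows. A match of letters is a description of the sequence, and no binding was measured in these samples.

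Library totals ran from 26012844 to 36854199 expected counts, and the least abundant member, Slc7a11, still had 133 counts in its lowest library. Levels are given as CPM, that is, counts divided by the effective library size that TMM gives. Calls were made at an adjusted p below 0.05 (Benjamini-Hochberg, over all 14461 tested genes) in edgeR's quasi-likelihood test. Summed CPM of 11 myotube markers (Myog, Ckm, Myh3 and others) was 22020 to 23190 in vehicle and 21810 to 23490 at 500 µg/mL, but single markers moved both ways: Myog, Tnnt3, Mylpf and Des rose, and Myh3, Myh8, Ckm (log2 −0.48) and Atp2a1 (−0.37) fell. Markers of undifferentiated myoblasts summed to 585 to 593 CPM in vehicle and 559 to 578 CPM at 500 µg/mL. Of the 9 tested, Heyl (−0.86), Vcam1 (−0.53), Notch3 (−0.33) and Pax7 (−0.30) fell, Gas1 (0.76) and Spry1 (0.47) rose, and 6 were lower and 2 higher without replicate 2 at that dose. All 10 markers of proliferating cells were called lower at 500 µg/mL than in vehicle, as were 16.8% of all tested genes. Their sum was 436 to 447 CPM in non-treated cells and 356 to 369 in vehicle. It was 322 to 337 at 20, 285 to 296 at 100 and 146 to 149 at 500 µg/mL. In vehicle against non-treated cells 5 of the 10 were already called lower, while 1.31% of all tested genes were called either way. The sum of 10 adipocyte markers was 48.3 to 49.9 CPM in vehicle and 104 to 115 CPM at 500 µg/mL, the 3 of them that were tested (Pparg, Cebpa and Lpl) rose, and of the defining markers Adipoq and Plin1 had 2 and 1 counts over all libraries and Cidec and Cfd 0. Immune and endothelial markers summed to at most 2.05 CPM, with Tie1 at 0. In bulk RNA, fewer cells of a type and less RNA per cell cannot be told apart, and the part of these shifts in the results that follow was not tested. At 500 µg/mL, replicate 2 stood apart from replicates 1 and 3 on the first principal component (17.5 against 37.2 and 39.4). Its mitochondrial share of counts was the highest of that group (4.94% against 4.27% and 3.47%) but within the vehicle range of 4.74% to 4.94%. The 3.47% of replicate 3 was the lowest share of all 15 libraries. Non-treated replicate 2 stood apart from its group on the second component (21.4 against 12 and 8.89).

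Against vehicle, 6 of the 10 genes rose at 500 µg/mL (Gclm, Gss, Txnrd1, Txn1, Srxn1 and Prdx1), Gpx1 fell, and Gclc, Gsr and Slc7a11 were not called. Over all tested genes 33.3% were called in this comparison, 16.5% as higher and 16.8% as lower. At this dose 7 of the 10 genes did not overlap the vehicle range, and the same held for 40.1% of all tested genes. The median log2 fold change of the 10 genes was 0.28, against 0.01 for all tested genes. At 100 µg/mL Gclm, Txnrd1 and Srxn1 rose, while 4.31% of all tested genes were called, 2.09% as higher. At 20 µg/mL none of the 10 genes was called (0.325% of all tested genes were), nor was any between vehicle and non-treated cells (1.31%). DESeq2 also called 0 in each of these comparisons, and at an unadjusted p below 0.05 there were 2 at 20 µg/mL (Gclm higher, Gclc lower) and 0 for vehicle against non-treated. No overlap was found for 4 of the 10 genes at 100 µg/mL (26.3% of all tested genes), 3 at 20 µg/mL (20.9%) and 3 for vehicle against non-treated (26.8%). Without 500 µg/mL replicate 2, the counts at that dose were again 6 higher and 1 lower, while 43.3% of all tested genes were called, 20.9% as higher and 22.4% as lower, against 33.3% with it. This setting was chosen after seeing the data.

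**Figure D1:**
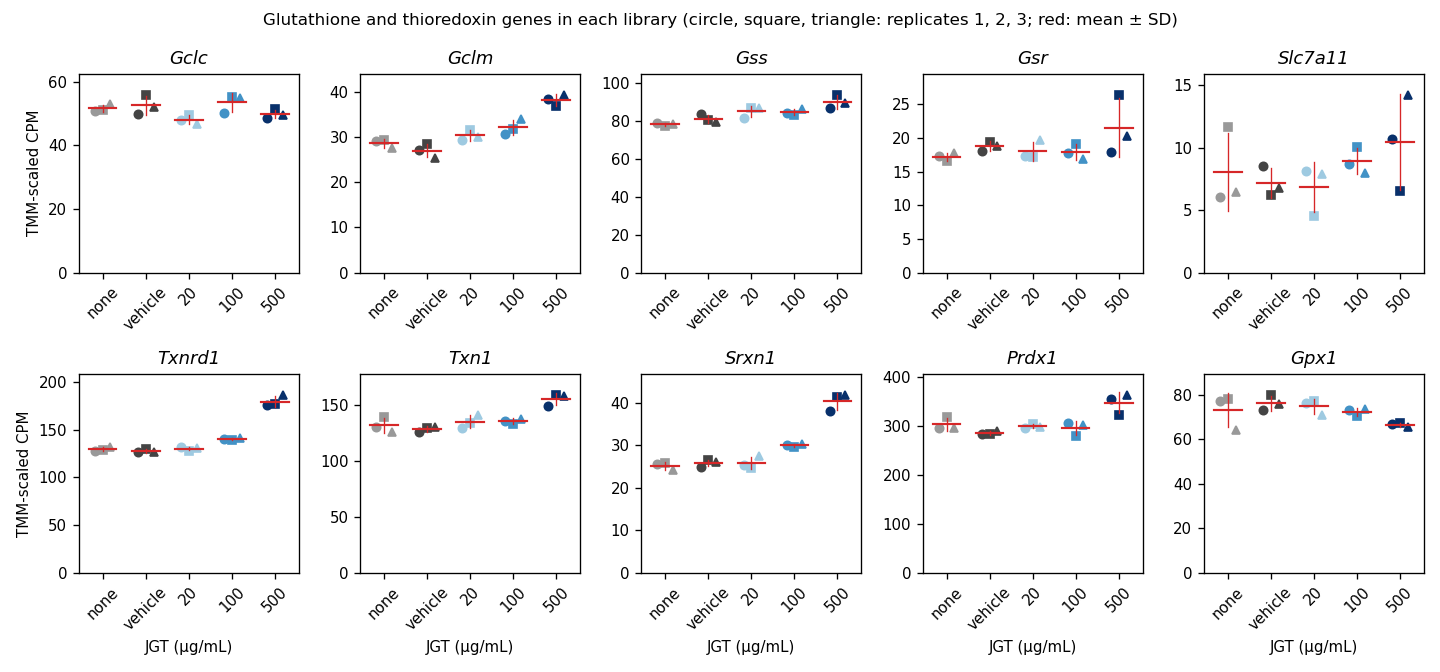
TMM-scaled CPM of each of the 10 genes (vertical axes from 0) in every library of the 5 groups; symbols mark replicates 1 to 3, and red lines the mean ± SD of 3 libraries. Txnrd1 and Srxn1 are highest in the 3 libraries at 500 µg/mL, Gclc shows no order by dose, Slc7a11 spreads widely within groups, and Gsr does so at 500 µg/mL, where replicate 2 is highest.

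Of the genes for the first step of glutathione synthesis, Gclm was called higher at 500 µg/mL and Gclc was not. The 95% interval of the supply gene Slc7a11 was wide enough to contain the fitted folds of both. Slc7a11 (chr3:49892526-50443614, minus strand, GRCm38) was measured at 8.52, 6.17 and 6.78 CPM in the vehicle libraries and at 10.7, 6.51 and 14.2 CPM at 500 µg/mL. The ranges overlapped, and the fitted fold was 1.45 with a 95% interval of 0.860 to 2.43 (log2 0.53 ± 0.338, SE, adjusted p = 0.261). The lowest of the 500 µg/mL libraries was replicate 2, the one that stood apart; without it the log2 fold change was 0.78 (adjusted p = 0.0742). In the non-treated group replicate 2 was high, at 11.6 CPM beside 6.03 and 6.46. Not whole were 12 of its 15 deposited values, so some reads were divided among loci, and the annotation places 5 other genes across it, among them 3 processed pseudogenes; its level is uncertain to that extent. Slc3a2, which encodes the heavy chain that carries xCT to the membrane, was 171 ± 6.01 CPM in vehicle, 191 ± 6.66 at 100 µg/mL (log2 0.16, adjusted p = 0.0196) and 175 ± 6.11 at 500 µg/mL (log2 0.03, adjusted p = 0.584).

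Gclc (chr9:77754535-77794485, plus strand) held a nearly level signal between vehicle (49.7, 55.8 and 52.1 CPM) and 500 µg/mL (48.7, 51.3 and 49.4 CPM). At 20 µg/mL Gclc had 47.95, 49.5 and 46.8 CPM, below the vehicle range (log2 −0.13, adjusted p = 0.355). It was not called at any dose against vehicle, with a fold of 0.949 (95% interval 0.884 to 1.02) at 500 µg/mL. Between 100 and 500 µg/mL its log2 difference was −0.10 (adjusted p = 0.141), and it was called lower without 500 µg/mL replicate 2 (−0.13, adjusted p = 0.0476) or without 100 µg/mL replicate 1 (−0.15, adjusted p = 0.0486). Its partner Gclm (chr3:122245557-122270732, plus strand), whose window is printed above, had a higher mean at each higher dose, though not every step was called. The vehicle libraries had 27.1, 28.4 and 25.5 CPM, those at 20 µg/mL 29.4, 31.6 and 30.01, those at 100 µg/mL 30.6, 31.9 and 33.9, and those at 500 µg/mL 38.4, 36.8 and 39.3. No JGT library overlapped the vehicle range, and the 3 at 500 µg/mL lay above all 12 others. The log2 fold change was 0.17 ± 0.0536 at 20 (adjusted p = 0.230), 0.25 ± 0.0530 at 100 (adjusted p = 0.00698) and 0.50 ± 0.0528 at 500 µg/mL (adjusted p = 3.22e-07). From 20 to 100 µg/mL the ranges overlapped and the log2 difference of 0.08 was not called (adjusted p = 0.821). From 100 to 500 µg/mL Gclm rose by 0.25 (adjusted p = 0.00169). Of its 15 values 14 were not whole, and an overlapping processed pseudogene (Gm6061) lies on the same strand, so part of its count is shared.

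The ratio of Gclm to Gclc counts within a library needs no scaling between libraries. It was 0.545, 0.509 and 0.489 in vehicle, 0.572, 0.573 and 0.521 in non-treated cells, 0.612, 0.639 and 0.642 at 20 µg/mL, 0.610, 0.576 and 0.617 at 100 µg/mL, and 0.789, 0.718 and 0.796 at 500 µg/mL. Every library at 500 µg/mL therefore stood above every other library, and the groups at 20 and 100 µg/mL stood above vehicle. At 20 µg/mL both a lower mean of Gclc and a higher mean of Gclm, neither called, entered the ratio. At 500 µg/mL the mean ratio was 0.768 ± 0.0433 (SD, n = 3) against 0.514 ± 0.0286 in vehicle, 1.49 times as high. The two-sided exact permutation test gave p = 0.1, the smallest value that 3 against 3 libraries allow. Gclm alone already separated these groups, by more than the spread of Gclc, so the ratio had to separate them too. This p therefore adds no support.

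**Figure D2:**
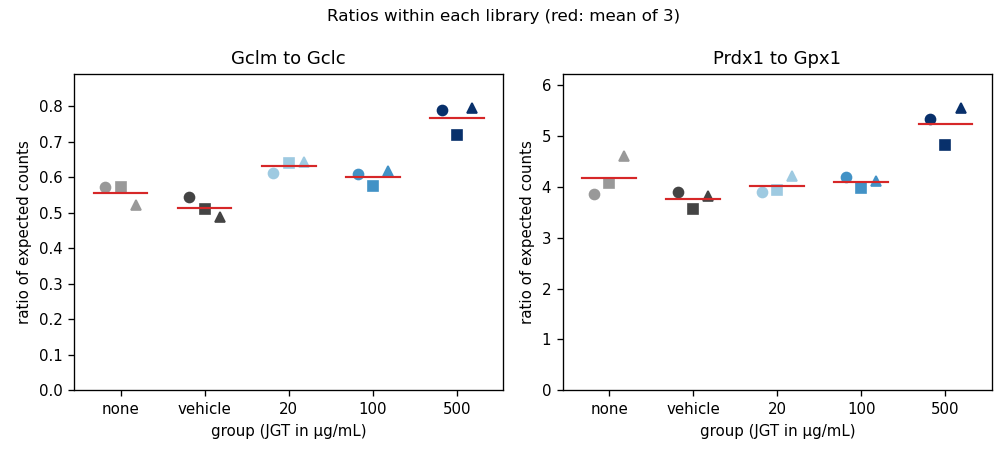
Ratio of expected counts within each library for Gclm to Gclc (left) and Prdx1 to Gpx1 (right), vertical axes from 0; symbols mark replicates 1 to 3 and red lines the mean of 3 libraries. Both ratios are highest in the 3 libraries at 500 µg/mL, with means of 0.768 and 5.24.

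The second enzyme of synthesis, Gss (chr2:155563181-155592810, minus strand), moved by less. Its vehicle libraries had 83.5, 80.2 and 79.2 CPM and those at 500 µg/mL 86.7, 93.7 and 89.3, with no overlap. It rose by 0.15 ± 0.0397 on the log2 scale (adjusted p = 0.00586), and from 100 to 500 µg/mL the difference of 0.09 was not called (adjusted p = 0.121). Acss2 and 2 antisense RNAs overlap Gss on the opposite strand, and no source used here says whether the counting was stranded.

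Gsr (chr8:33652523-33698163, plus strand), which regenerates reduced glutathione, had 17.99, 19.4 and 18.8 CPM in vehicle and 17.9, 26.4 and 20.3 CPM at 500 µg/mL. The highest value belonged to replicate 2, and the lowest lay below the vehicle range. The log2 fold change was 0.20 ± 0.107 (adjusted p = 0.161), 0.02 without replicate 2 (adjusted p = 0.872) and 0.32 without replicate 1 (adjusted p = 0.0146). Against non-treated cells, a comparison in which 31.8% of all tested genes were called, it was called higher (log2 0.33, adjusted p = 0.0298). Its value at 500 µg/mL thus rests on the library that stood apart.

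Gpx1 (chr9:108338903-108340343, plus strand) was the only one of the 10 called lower in any of the 7 planned comparisons. The vehicle libraries had 73.03, 79.9 and 76.0 CPM, those at 100 µg/mL 73.3, 70.3 and 73.6, and those at 500 µg/mL 66.9, 67.2 and 65.4. The 3 values at 500 µg/mL lay close together and below the vehicle range, but non-treated replicate 3, at 64.5 CPM, was lower still. Against vehicle the log2 fold change was −0.20 ± 0.0579 (adjusted p = 0.0122) and against 20 µg/mL −0.17 (adjusted p = 0.0369), but the call was lost against non-treated cells (−0.14, adjusted p = 0.0728) and without vehicle replicate 2 (−0.17, adjusted p = 0.0716). The call against 20 µg/mL was lost without either of replicates 1 and 2 at 20 µg/mL (−0.16 and −0.15) or replicates 1 and 3 at 500 µg/mL (−0.18 and −0.16), with adjusted p between 0.0811 and 0.122.

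The cytosolic thioredoxin pair rose together, the reductase by more than its substrate. Txnrd1 (chr10:82833951-82897712, plus strand) had 127, 130 and 127 CPM in vehicle, 128, 129 and 132 in non-treated cells, 132, 128 and 131 at 20 µg/mL, 140.3, 139.6 and 141 at 100 µg/mL, and 175, 176 and 186 at 500 µg/mL. The libraries at 100 µg/mL lay above every control library and those at 500 µg/mL above all others. The log2 fold change against vehicle was 0.14 ± 0.0334 at 100 (adjusted p = 0.0178) and 0.49 ± 0.0334 at 500 µg/mL (adjusted p = 4.36e-10), and the step from 100 to 500 µg/mL was 0.35 (adjusted p = 1.36e-07). Eid3 on the same strand and 2 non-coding genes on the other overlap Txnrd1.

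Txn1 (chr4:57943373-57956411, minus strand) had 126, 130.0 and 130.1 CPM in vehicle and 149.5, 159 and 159 at 500 µg/mL, with no overlap. It rose by 0.27 ± 0.0420 at 500 µg/mL against vehicle (adjusted p = 3.72e-05) and by 0.20 against 100 µg/mL (adjusted p = 0.00197). At 100 µg/mL its log2 difference from vehicle was 0.08 (adjusted p = 0.402). Txnip, the protein that binds and inhibits thioredoxin, followed another course: 73.8 to 78.5 CPM in vehicle and 75.2 to 76.2 in non-treated cells, but 55.4 to 56.3 at 20, 51.5 to 54.9 at 100 and 49.96 to 57.9 at 500 µg/mL. Its log2 fold change was −0.44 at 20 (adjusted p = 6.98e-05), −0.50 at 100 (adjusted p = 1.06e-06) and −0.51 at 500 µg/mL (adjusted p = 4.8e-08). Txnip was thus already lower at the dose where none of the 10 genes was called, and its range at 500 µg/mL contained that at 20. This difference runs between the control and JGT numbering of the sample codes and cannot be told apart from it, and a part of DMSO, whose level at 20 and 100 µg/mL is not known, was not tested.

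Prdx1 (chr4:116685544-116700822, plus strand), the peroxiredoxin that Txn1 reduces in the cytosol, had 284, 284 and 291 CPM in vehicle, 307, 279 and 303 at 100 µg/mL, and 357, 324 and 364 at 500 µg/mL. The lowest of the 500 µg/mL libraries, replicate 2, still lay above every library of the other groups. It rose by 0.28 ± 0.0447 against vehicle (adjusted p = 5.94e-05) and by 0.23 against 100 µg/mL (adjusted p = 0.000866). With Gpx1 lower and Prdx1 higher, the ratio of Prdx1 to Gpx1 counts within a library was 3.89, 3.56 and 3.83 in vehicle and 5.34, 4.82 and 5.56 at 500 µg/mL. The means were 3.76 ± 0.177 and 5.24 ± 0.382 (SD, n = 3). Each gene alone already separated these groups, in opposite directions, so the ratio had to separate them too. The exact permutation p of 0.1, the smallest possible, follows from that and adds no support. The ratio was 3.85, 4.08 and 4.61 in non-treated cells, so all 3 libraries at 500 µg/mL also exceeded that group.

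Srxn1 (chr2:152105516-152111376, plus strand) had the largest called rise of the 10 genes at 500 µg/mL. It had 24.9, 26.4 and 26.02 CPM in vehicle, 25.4, 24.7 and 27.4 at 20 µg/mL, 30.03, 29.6 and 30.2 at 100 µg/mL, and 38.0, 41.2 and 41.7 at 500 µg/mL. The groups at 100 and at 500 µg/mL overlapped neither each other nor any other group. The log2 fold change was 0.00 at 20 (adjusted p = 0.993), 0.22 ± 0.0514 at 100 (adjusted p = 0.0172) and 0.65 ± 0.0508 at 500 µg/mL (adjusted p = 4.24e-09), a fold of 1.56 with a 95% interval of 1.45 to 1.68. From 100 to 500 µg/mL it rose by 0.43 (adjusted p = 2.15e-06). No other annotated gene overlaps Srxn1, Prdx1, Txn1, Gpx1 or Gclc, and all values of these genes were whole. All values of Gss, Gsr and Txnrd1 were whole too, although other annotated genes overlap them.

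**Figure D3:**
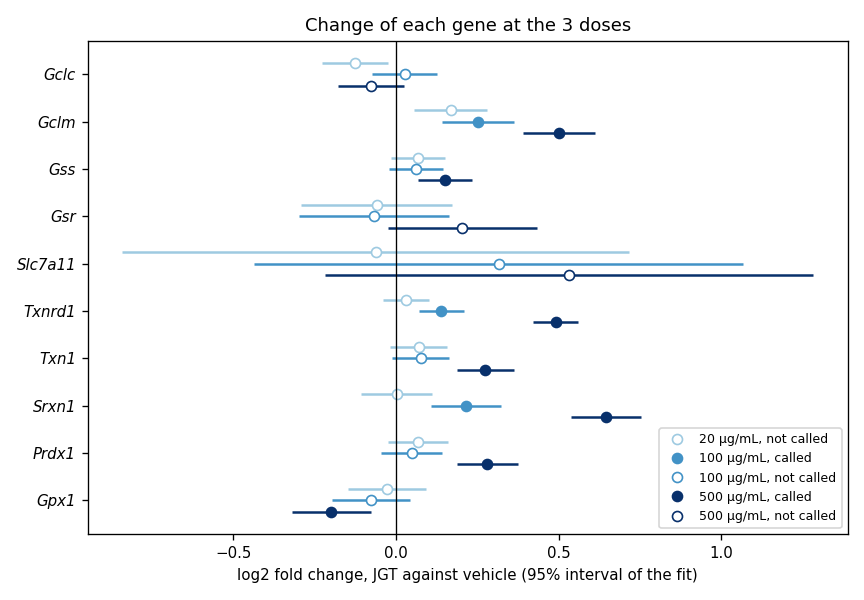
Log2 fold change of each gene against vehicle at 20, 100 and 500 µg/mL, with the 95% interval of the edgeR fit; filled points were called. Filled points at 100 µg/mL are Gclm, Txnrd1 and Srxn1, and the interval of Slc7a11 is the widest.

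Between doses, which share one numbering of sample codes, 5 of the 10 genes rose from 100 to 500 µg/mL (Gclm, Txnrd1, Txn1, Srxn1 and Prdx1), where 19.7% of all tested genes were called and 9.05% rose. From 20 to 500 µg/mL the same 5 rose and Gpx1 fell, with 23.3% of all tested genes called, 11.1% as higher and 12.2% as lower. From 20 to 100 µg/mL none was called by edgeR or DESeq2 (edgeR called 0.429% of all tested genes), and 3 had an unadjusted p below 0.05 (Gclc, Srxn1 and Txnrd1, all higher). The groups did not overlap for 7 of the 10 genes from 100 to 500 µg/mL (29.5% of all tested genes), 6 from 20 to 500 (32.5%) and 3 from 20 to 100 µg/mL (15.8%). The largest difference of that 20 to 100 µg/mL step among the called genes at 500 µg/mL was that of Srxn1 (log2 0.21, adjusted p = 0.0773). These comparisons share libraries with those against vehicle. The calls at 100 µg/mL against vehicle depended on single libraries: those of Txnrd1 and Srxn1 were lost on leaving out any one of the 6 libraries other than vehicle replicate 2, with adjusted p between 0.0509 and 0.0978. That of Gclm was lost without vehicle replicate 3 (0.21, adjusted p = 0.0674) or 100 µg/mL replicate 3 (0.21, adjusted p = 0.0535), and against non-treated cells (0.17, adjusted p = 0.0511), where 9.13% of all tested genes were called.

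Across the 15 libraries, log2 CPM of Txnrd1 followed that of Srxn1 most closely among the 10 genes (Pearson r = 0.977), then Gclm (0.913) and Txn1 (0.896), whereas Gclc and Gclm gave r = −0.153. Over the 12 libraries without those at 500 µg/mL the same coefficients were 0.862, 0.715, 0.387 and 0.131. They describe libraries that share groups and depth. Of 10444 genes with a mean of at least 5 CPM, those most like Txnrd1 were Pgd, an enzyme of the pentose phosphate pathway that makes NADPH (r = 0.986), the aldehyde dehydrogenase gene Aldh3a1 (0.985) and the xanthine dehydrogenase gene Xdh (0.984). For Gclm they were the arrestin-domain gene Arrdc3 (0.976), Me1, the malic enzyme that makes cytosolic NADPH (0.972), and Ipp (0.969). For Slc7a11 they reached only 0.843 (Mipep), 0.843 (Fyb) and 0.841 (Bloc1s5). Over the 12 libraries, a setting also chosen after seeing the data, the coefficients of these genes were 0.871, 0.904 and 0.947 with Txnrd1, 0.934, 0.918 and 0.895 with Gclm, and 0.760, 0.841 and 0.821 with Slc7a11, in the same order.

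Per kilobase of the longest coding transcript, the vehicle levels fell in the order Prdx1 (125 ± 1.67 CPM per kilobase, SD, n = 3), Txn1 (122 ± 2.33), Gpx1 (71.2 ± 3.21), Gss (41.2 ± 1.15), Txnrd1 (35.2 ± 0.477), Gclc (15.3 ± 0.904), Srxn1 (9.17 ± 0.277), Gsr (7.02 ± 0.273), Gclm (4.83 ± 0.267) and Slc7a11 (0.776 ± 0.132). Prdx1 and Txn1 were neighbours whose ranges all but met (123.9 to 126.8 and 119.7 to 123.8), and no later neighbours in this order overlapped. At 500 µg/mL Txnrd1 (49.5 ± 1.62) passed Gss (45.8 ± 1.78). The order depends on the transcript taken as the length: over the union of all exons Txn1 came first, and Gss, with 13.7 CPM per kilobase in vehicle, came sixth.

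Other genes of both systems were taken from lists, whose counts at 500 µg/mL stand beside the 16.5% of all tested genes called higher and 16.8% called lower, or 20.9% and 22.4% without replicate 2. Of 19 genes of glutathione turnover, precursor supply and export, 16 were tested (Cbs, Ggt1 and Ggt5 were not). At 500 µg/mL 6 rose, Lap3 fell and 9 were not called, with a median log2 fold change of 0.12; without replicate 2 at that dose 7 rose and 1 fell. Esd, the esterase that frees glutathione from S-formylglutathione, went from 132.0 to 148 CPM in vehicle to 280.1 to 366 CPM (log2 1.14 ± 0.0795, adjusted p = 6.91e-08). Anpep, an aminopeptidase that cleaves the dipeptide left after glutathione breakdown, rose by 0.58 ± 0.0421 (adjusted p = 1.32e-09), and Abcc4, an efflux pump that can carry glutathione, by 0.51 ± 0.102 (adjusted p = 0.000651). Lap3, a leucine aminopeptidase, fell by 0.11 (adjusted p = 0.0343). At 100 µg/mL, where 2.09% of all tested genes rose, 3 of the 16 did: Anpep (0.23), Esd (0.33) and Slc3a2.

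Of 8 other glutathione peroxidases and glutaredoxins, 7 were tested (Gpx7 was not). At 500 µg/mL the secreted peroxidase gene Gpx3 rose (log2 0.31, adjusted p = 0.0199), and the other 6 were not called, with a median over the 7 of 0.04. The glutaredoxin genes Glrx (0.18, adjusted p = 0.0533) and Glrx5 (0.16, adjusted p = 0.0887) had the next smallest p-values. Without replicate 2 at 500 µg/mL, 1 rose and 2 fell.

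The 18 other genes of thioredoxins, reductases, peroxiredoxins and methionine sulfoxide reductases went both ways at 500 µg/mL: 3 rose, 6 fell and 9 were not called (median −0.03), and 3 rose and 9 fell without replicate 2. Prdx6, a peroxiredoxin that works with glutathione rather than thioredoxin, went from 145 to 147.5 CPM in vehicle to 203 to 242 CPM (log2 0.62 ± 0.0548, adjusted p = 4.8e-08). Prdx5 rose at 100 (0.18, adjusted p = 0.00385) and 500 µg/mL (0.32, adjusted p = 7.85e-07). The third that rose, the sestrin gene Sesn1 (0.17, adjusted p = 0.0152), was named after its value was seen, as was Msrb3, a methionine sulfoxide reductase gene that fell by 0.42. The mitochondrial reductase gene Txnrd2 (log2 −0.01) and peroxiredoxin gene Prdx3 (log2 −0.03), also picked afterwards, were not called.

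Of 5 superoxide dismutase and catalase genes, 3 rose at 500 µg/mL, Sod3 fell and Sod2 was not called (median 0.27; 3 and 1 without replicate 2). Sod1, the cytosolic superoxide dismutase, was 83.8 to 86.6 CPM in vehicle and 106 to 125 CPM at 500 µg/mL (log2 0.47 ± 0.0540, adjusted p = 1.21e-06). Ccs, the chaperone that loads Sod1 with copper, rose by 0.44 ± 0.0723 (adjusted p = 8.26e-05), and catalase (Cat) by 0.27 (adjusted p = 0.00119). The extracellular form, Sod3, fell by 0.14 (adjusted p = 0.0478). The mitochondrial form, Sod2, picked afterwards, had a log2 difference of 0.04 (adjusted p = 0.589).

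Among 13 genes of NRF2 and its regulators, 8 rose at 500 µg/mL, Bach2 fell and 4 were not called (median 0.16); 11 rose and 1 fell without replicate 2. Over all tested genes, 16.5% rose and 16.8% fell, and 20.9% and 22.4% without that library. Nfe2l2, which encodes NRF2, was 164 ± 3.95 CPM in vehicle and 193 ± 13.5 at 500 µg/mL (log2 0.23, adjusted p = 0.000313), and Keap1, its cytosolic inhibitor, went from 50.4 ± 1.18 to 56.1 ± 0.744 CPM (log2 0.15, adjusted p = 0.00677). Sqstm1, the adaptor p62 that binds KEAP1, rose by 0.52 ± 0.0633 (adjusted p = 5.93e-06), the small MAF gene Maff by 0.46 ± 0.0702 (adjusted p = 3.98e-05) and the kinase gene Fyn by 0.27 ± 0.0371 (adjusted p = 1.05e-05). Bach1, a repressor at antioxidant response elements, stayed at 82.4 ± 3.25 and 82.6 ± 3.00 CPM (log2 0.00, adjusted p = 0.957), and its relative Bach2, at 4.53 ± 0.115 CPM in vehicle, fell by 0.72 at 500 (adjusted p = 0.000107) and by 0.49 at 100 µg/mL (adjusted p = 0.0160). From 100 to 500 µg/mL 8 of the 13 rose, as did 9.05% of all tested genes.

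A further pair of lists touches the selenoproteins Txnrd1 and Gpx1 and the supply of cystine. Of 8 genes of selenoprotein synthesis, Sephs2, which makes the selenium donor, rose by 0.37 (adjusted p = 0.000497) and Secisbp2, which reads the selenocysteine signal, by 0.22 (adjusted p = 0.0108). The other 6, among them Scly (0.15, adjusted p = 0.0814), were not called; the median was 0.15, and 4 rose without replicate 2. Of 12 genes of the ATF4 arm of the amino acid stress response, which includes regulators of Slc7a11 in many cells, 2 rose at 500 µg/mL and 2 fell (median 0.02; 3 and 3 without replicate 2), so 4 of 12 were called, a share near the 33.3% over all tested genes. Ddit4 rose by 0.37 (adjusted p = 0.00591) and Cebpb, named after its value was seen, by 0.73 (adjusted p = 0.0245), while Atf3 fell by 0.37 (adjusted p = 0.0121) and Ddit3 by 0.20 (adjusted p = 0.0185). Atf4 itself, also named afterwards, had a log2 difference of 0.00 (adjusted p = 0.992).

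**Figure D4:**
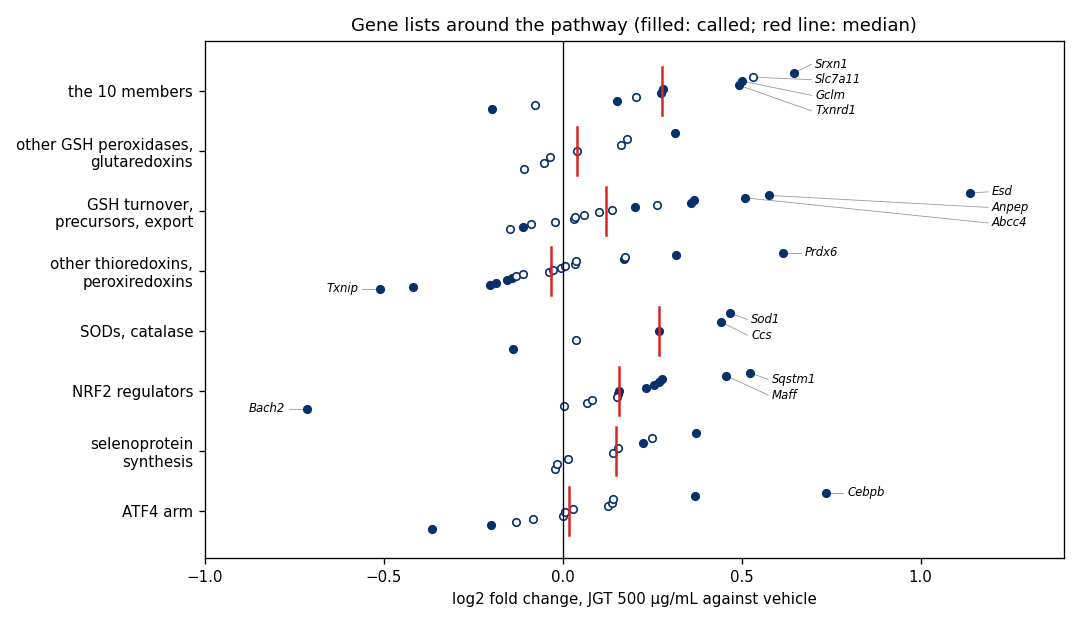
Log2 fold change at 500 µg/mL against vehicle for each tested gene of the 10 and of the 7 other lists; filled points were called, red lines are medians, and the genes farthest from 0 are labelled. The median is highest for the 10 genes (0.28) and the superoxide dismutases and catalase (0.27), and lowest for the other thioredoxins and peroxiredoxins (−0.03).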

How the data were processed

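RNA from 15 C2C12 libraries (3 in each of 5 groups) was made into directional mRNA libraries and sequenced as paired 100 bp reads, per the labels' protocols. The authors deposited 1 table of expected counts per gene symbol, not normalized; FastQC 0.11.9, Trim Galore 0.6.5, STAR 2.7.3a, RSEM 1.3.3 and GRCm38 are named in the submitters' processing notes, and their roles, the annotation and the strand setting are not stated there. Columns were matched to samples by the labels.

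Counts were rounded (9.34% were not whole, tolerance 0.005). edgeR 4.0.16 (R 4.3.3) kept 14461 genes by filterByExpr, scaled by TMM (factors 0.988 to 1.02) and fitted all 15 libraries in 1 robust quasi-likelihood model with a mean per group (10 residual degrees of freedom, biological coefficient of variation 5.31%). All p-values of genes are two-sided and Benjamini-Hochberg adjusted over all tested genes. The fit was tested on simulated data. Likeness was Pearson's r of log2 CPM with a prior count of 2. Positions and lengths are from GENCODE M21. Alternatives were library totals or RLE scaling, no filter, 2-group fits, DESeq2 1.42.0, a replicate block, the non-treated control and each library left out.

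The 10 genes and the lists were chosen with earlier results of these data known. By rule, the text names all 10 genes, the 3 genes of each other list with the smallest p at 500 µg/mL, up to 2 called against the list's majority, and Slc3a2, Txnip, Nfe2l2, Keap1 and Bach1; others are marked.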

Additional observations from a re-analysis of the deposited data

How the results depend on the processing

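At 500 µg/mL against vehicle, Gclm, Gss, Txnrd1, Txn1, Srxn1 and Prdx1 were called higher under all 13 alternatives, with log2 fold changes of 0.416 to 0.538, 0.114 to 0.200, 0.462 to 0.509, 0.240 to 0.300, 0.616 to 0.683 and 0.195 to 0.325, while Gpx1 was called in 11 (−0.234 to −0.140) and Gsr in 2 (0.0175 to 0.330). Of 450 values of the 10 genes under other settings, 437 kept direction and call, 3 lost and 4 gained a call, and 6 changed sign; with 1 library left out, of 420 values 378 kept both, 17 lost and 5 gained a call, and 20 changed sign. No value that changed sign had been called. With non-treated cells as the control, Gsr (0.0676), Prdx1 (−0.0185) and Gpx1 (0.0309) changed sign at 20 µg/mL and Gsr (0.0596) and Prdx1 (−0.0371) at 100 µg/mL, and the genes called were 450 (47 against vehicle) and 1320 (623 against vehicle). With library totals as the scaling, Txn1 changed sign from 20 to 100 µg/mL (−0.00739). Fits of only the compared groups called 1031 genes for vehicle against non-treated (189 in the joint fit), 330 and 1369 at 20 and 100 µg/mL, 191 from 20 to 100 (62), 1313 from 100 to 500 (2853) and 1982 from 20 to 500 µg/mL (3369). DESeq2 called 319 for vehicle against non-treated and 95 at 20 µg/mL, where 73 were called with no filter. From 20 to 100 µg/mL, 1 of the 10 genes (Srxn1) was called with no filter and 1 in the 2-group fit. With 1 library left out, genes called ranged from 36 to 88 for vehicle against non-treated, 18 to 36 at 20, 315 to 409 at 100, 19 to 41 from 20 to 100, 1880 to 4989 from 100 to 500 and 2532 to 5165 from 20 to 500 µg/mL, the last 2 maxima without 500 µg/mL replicate 2, and the members called at 100 µg/mL from 0 to 3. Fewer libraries enter these fits; other causes were not tested. Uncalled values changed sign with 1 library left out. For vehicle against non-treated the ranges were −0.0212 to 0.0641 (Gclc), −0.340 to 0.200 (Slc7a11), −0.0679 to 0.00416 (Txn1) and −0.0265 to 0.107 (Gpx1). At 20 µg/mL they were −0.212 to 0.154 (Slc7a11), −0.0404 to 0.0314 (Srxn1) and −0.0587 to 0.00937 (Gpx1), and at 100 µg/mL −0.0122 to 0.0744 (Gclc). From 20 to 100 µg/mL they were −0.0353 to 0.00887 (Gss), −0.0572 to 0.0557 (Gsr), −0.0210 to 0.0398 (Txn1) and −0.0444 to 0.0228 (Prdx1), and from 100 to 500 µg/mL −0.0683 to 0.470 (Slc7a11).

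Over all 5 groups, replicate numbers did not pair the samples. Across 5000 genes, 9 of 30 same-numbered pairs had a correlation of deviations over 0.1 (−0.647 to 0.647, median −0.142), and 4 of 15 libraries correlated best with their own number. The JGT sample codes are grouped by replicate number. Among JGT libraries, same-numbered pairs gave 0.443, 0.454 and 0.647 for replicate 3. They gave −0.242, −0.388 and 0.506 for replicate 2, and 0.0625, −0.184 and 0.05 for replicate 1. A block among the JGT libraries alone was not tested. With a replicate block, 4757 genes were called at 500 µg/mL, 582 at 100 and 49 at 20 µg/mL against vehicle, and 7, 3 and 0 of the 10 genes.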
